A study of Rattus norvegicus with 4 samples.

Results

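Fatty acid oxidation and ketogenesis are described here through 34 genes, chosen by symbol from a fixed list of enzymes, carriers and fasting-responsive genes of the pathway. All 34 had a row in the deposited table of 31457 rows, and all had a value other than 0. The data are 4 RNA sequencing libraries of Lewis rat liver (allotype RT1L), each the sole library of its group. One came from a naive control. The other 3 came from rats whose liver had been partly removed (PH, partial hepatectomy, after which the remnant regrows) and which received, by vein, saline, ASCs-siRNC or ASCs-miR27b. Their livers are called saline, siRNC and miR-27b below. The labels spell out neither ASCs nor siRNC, and both names are used as given. Surgery and the intravenous route are common to all 3, so no group shows an injected agent without hepatectomy. No source used here gives the interval from surgery to collection, the feeding state, the ages, or whether a library holds 1 animal or several.

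Fatty acids are a main fuel of the liver between meals. They are activated to acyl-CoA, pass into mitochondria as carnitine esters, and are shortened there by repeated rounds of dehydrogenation, hydration, dehydrogenation and thiolysis. Peroxisomes start on very long and branched chains, microsomal enzymes oxidise the far (omega) end, and surplus acetyl-CoA becomes ketone bodies. Many of these genes are targets of PPAR alpha, a nuclear receptor that binds fatty acids and pairs with RXR on direct repeats of AGGTCA spaced by a single base. In fasting the pathway is switched on, and insulin works against it.

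The labels name miR27b without its arm. Both rat arms are shown because this RNA is the named difference between the miR-27b and siRNC groups. They are from RefSeq (build GRCr8, minus strand, chr17:1819163-1819183 for the 3p and chr17:1819202-1819225 for the 5p arm), with the seed (bases 2 to 8) in capitals:
rno-miR-27b-3p: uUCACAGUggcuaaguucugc
rno-miR-27b-5p: aGAGCUUAgcugauuggugaacag
Target sites were not searched, since 3′ ends of transcripts were not used here.

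Upstream sequences of 29 of the 34 genes were matched by gene ID in the RefSeq table (build GRCr8), and the 250 bases before each start were searched on both strands. Letters close to the paired repeat (AGGTCA, any single base, AGGTCA, with up to 2 mismatches) were found in 6 of the 29 (20.7%), against 3.15% of 33469 upstream sequences of the same length. The single motif AGGTCA, which can lie inside such a repeat, was found in 5 of the 29 (17.2%), against 14.1% of all. The 33469 sequences were not limited to genes with a value in these livers, which all 34 genes had. The shares thus compare unlike sets. A match is a description of letters, not a binding site. The sequences shown are those of the 3 genes that differed 2-fold or more between libraries (Angptl4, Pdk4 and Crat) and of Fabp1, which holds a close match near its start. They were chosen after their values were seen, because the rule set earlier for promoters (2-fold or more from naive in 1 direction in all 3 hepatectomised livers) named none of the 34 genes. Capitals mark the matches, and positions are chr7:15258682-15258931 (minus strand) for Angptl4, chr4:34568330-34568579 (minus strand) for Pdk4, chr3:34087100-34087349 (minus strand) for Crat and chr4:104749090-104749339 (plus strand) for Fabp1.
Angptl4: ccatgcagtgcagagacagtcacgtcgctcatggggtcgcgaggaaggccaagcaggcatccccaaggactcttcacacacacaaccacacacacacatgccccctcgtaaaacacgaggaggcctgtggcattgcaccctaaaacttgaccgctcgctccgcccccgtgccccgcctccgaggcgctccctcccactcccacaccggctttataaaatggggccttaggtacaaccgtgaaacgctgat
Pdk4: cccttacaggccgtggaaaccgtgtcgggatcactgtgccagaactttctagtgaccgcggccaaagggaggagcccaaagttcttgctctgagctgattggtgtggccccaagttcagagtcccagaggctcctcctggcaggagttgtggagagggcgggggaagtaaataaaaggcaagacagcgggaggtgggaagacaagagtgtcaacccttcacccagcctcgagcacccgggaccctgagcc
Crat: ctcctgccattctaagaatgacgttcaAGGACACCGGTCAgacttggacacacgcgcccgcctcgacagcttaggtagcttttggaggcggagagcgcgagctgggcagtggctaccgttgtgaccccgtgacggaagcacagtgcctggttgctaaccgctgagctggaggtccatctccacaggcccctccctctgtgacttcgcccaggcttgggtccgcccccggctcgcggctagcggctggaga
Fabp1: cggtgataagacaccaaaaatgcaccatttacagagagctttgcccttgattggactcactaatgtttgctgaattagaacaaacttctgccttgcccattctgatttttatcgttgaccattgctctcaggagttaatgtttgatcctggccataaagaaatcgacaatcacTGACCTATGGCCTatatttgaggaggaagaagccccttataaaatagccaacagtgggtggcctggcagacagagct
Angptl4 and Pdk4, which spanned the widest and the third widest range of the 33 genes that passed the level filter described next, held no match to these letters in this window. Crat held 1 from 223 to 211 bases before its start, and Fabp1 held 1 on the opposite strand from 77 to 65 bases before its start. The other 4 genes with a match to the repeat were Acot12, Acadvl, Echs1 and Etfa, all of them within 1.5-fold over the 4 libraries.

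The deposited values are log2 values relative to a baseline that differs from gene to gene, so they compare libraries within a gene and give no level. A value of 0 in some libraries is the gene's own baseline, not absence. The 18583 rows at 0 in all 4 libraries carry no signal. The rounding of the stored values places 29 of the 34 genes at or above 256 normalized reads in each library above the table's floor, though a gene at a lower level can fall there by chance. Crat, Acot2, Angptl4 and Vnn1 were at or above 16 normalized reads. Acot1 lay under 16 in at least 1 library and did not pass the level filter, so 33 of 34 genes enter the counts and medians. Of 12874 genes not at 0 throughout, 8938 passed this filter. Size factors, the scaling of each library for depth, were recovered from the values of genes seen in 1 library alone and were 0.977, 1.04, 1.01 and 0.956 for the naive, saline, siRNC and miR-27b libraries. The libraries' total reads are not part of what was analysed. Beside single genes a 95% interval is given (exact conditional binomial, Clopper-Pearson, of the ratio of reads). It places the gene's lowest library at the bottom of its level class and covers counting error only, not differences between animals. For a gene above that bottom the interval is wider than its counting error. As no group has a second library, no difference could be checked against replicates and no test of the conditions was made. Genes are described as 2-fold or 1.5-fold apart.

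The 33 genes as a set differed little between the livers, while 3 of them stood out. Only 1 of the 33, Bdh1, was listed under ketone bodies, so these counts describe oxidation far more than ketogenesis. Of the 33 genes, 3 were 2-fold or more apart between any 2 libraries (9.09%), against 16.6% of all genes that passed the filter. At 1.5-fold, 9 of 33 were apart (27.3%), against 43% of all. The median distance between the highest and lowest library was 0.35 on the log2 scale for the 33 genes and 0.52 for all 8938. Higher levels carry less counting error, so the comparison was repeated at or above 256 reads. That class has no upper bound, and levels within it were not matched. There the median distance was 0.29 over 29 genes of the pathway and 0.43 over all 2595 genes. Angptl4 (a distance of 3.11), Crat (1.35) and Pdk4 (1.32) were the 3 past 2-fold, and the next, Acsl1, lay just short of it at 0.96.

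**Figure D1:**
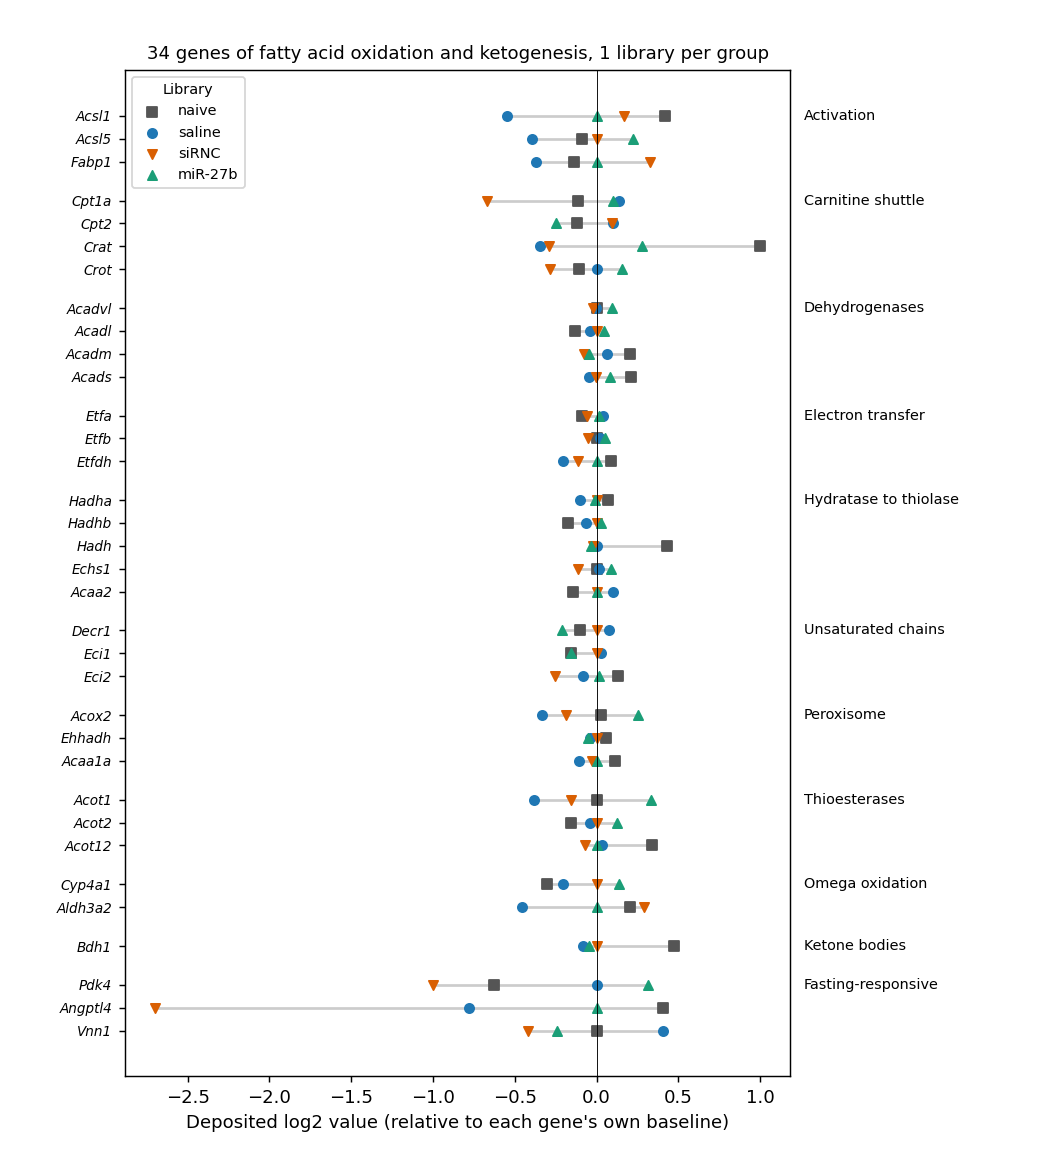
Deposited log2 value (x axis, relative to each gene's own baseline) of the 34 genes in the naive, saline, siRNC and miR-27b libraries, 1 point per library, grouped by role. Most genes lie within a narrow band, and Angptl4 reaches -2.70 in the siRNC library.

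**Figure D2:**
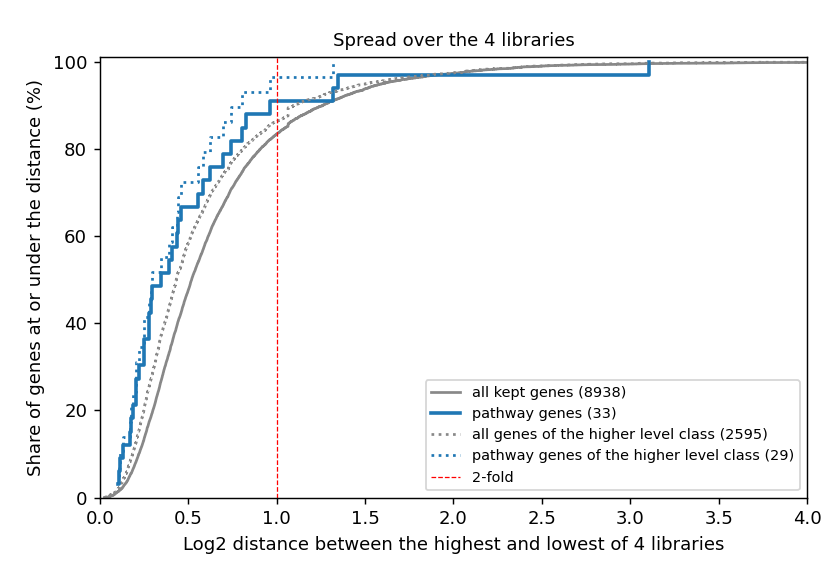
Share of genes (y axis, percent) whose distance between the highest and lowest of 4 libraries (x axis, log2) is at or under each value, for the pathway and for all genes that passed the level filter, with dotted lines for the higher level class. The median is 0.35 for the 33 pathway genes and 0.52 for all genes.

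Of the 3 fasting-responsive genes, Angptl4 had the widest distance of the 33 genes, while Pdk4 came after Crat and Vnn1 (0.83) after Acsl1. Angptl4, a secreted inhibitor of lipoprotein lipase (gene ID 362850), had log2 values of 0.41 in naive, -0.78 in saline, -2.70 in siRNC and 0 in miR-27b. The siRNC liver was thus far below the other livers, and the saline liver lay between it and the naive and miR-27b livers. The naive value was 8.61 times the siRNC value, and the miR-27b value was 6.49 times the siRNC value. The log2 fold was -3.11 in siRNC against naive (interval -3.97 to -2.37), -1.92 in siRNC against saline (-2.82 to -1.12) and 2.70 in miR-27b against siRNC (1.93 to 3.56). In saline against naive it was -1.19 (-1.64 to -0.75). In miR-27b against saline it was 0.78 (0.30 to 1.25), under 2-fold.

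Pdk4, the kinase that shuts pyruvate dehydrogenase and so spares glucose when fat is burned (gene ID 89813), was also lowest in the siRNC liver. Its log2 values were -0.63 in naive, 0 in saline, -1.002 in siRNC and 0.32 in miR-27b. Unlike Angptl4, it was higher in the saline and miR-27b livers than in the naive liver, by 0.63 (interval 0.43 to 0.83) and 0.94 (0.75 to 1.15). The miR-27b value was 2.50 times the siRNC value, a log2 fold of 1.32 (1.11 to 1.54). In siRNC against saline the fold was -1.002 (-1.23 to -0.79), just past 2-fold. It dropped under 2-fold with either other centring of the libraries. It also did so with a pseudocount of 5 or 20, its lowest library placed at 256 reads. Vnn1, a pantetheinase that releases pantothenate, a precursor of coenzyme A (gene ID 29142), had 0 in naive, 0.41 in saline, -0.42 in siRNC and -0.24 in miR-27b. Its largest difference, -0.83 in siRNC against saline, had an interval that included 0 (-1.79 to 0.12).

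The carnitine shuttle was uneven. Cpt1a, the outer-membrane carnitine palmitoyltransferase that sets the rate of entry into mitochondria (gene ID 25757), had -0.11 in naive, 0.14 in saline, -0.67 in siRNC and 0.10 in miR-27b. The siRNC liver was the low one, and the other 3 lay within 0.25 of each other. Cpt1a was at -0.81 in siRNC against saline (interval -1.03 to -0.58) and at 0.77 in miR-27b against siRNC (0.55 to 1.004). Cpt2, the inner-membrane partner, did not share this order: it had -0.12, 0.10, 0.093 and -0.25 in the naive, saline, siRNC and miR-27b libraries.

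Crat, which moves acetyl groups between CoA and carnitine (gene ID 311849), was highest in the naive liver, with 0.9995 there, -0.35 in saline, -0.29 in siRNC and 0.28 in miR-27b. The naive value was 2.54 times the saline and 2.44 times the siRNC value. Its log2 fold was -1.35 in saline against naive (interval -2.23 to -0.47), -1.29 in siRNC against naive (-2.19 to -0.42) and -0.72 in miR-27b against naive (-1.50 to 0.06). The intervals are wide because Crat is placed at 16 reads in its lowest library. Crot, the peroxisomal carnitine octanoyltransferase, was lowest in siRNC (-0.29) and highest in miR-27b (0.15), with -0.11 in naive and 0 in saline.

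**Figure D3:**
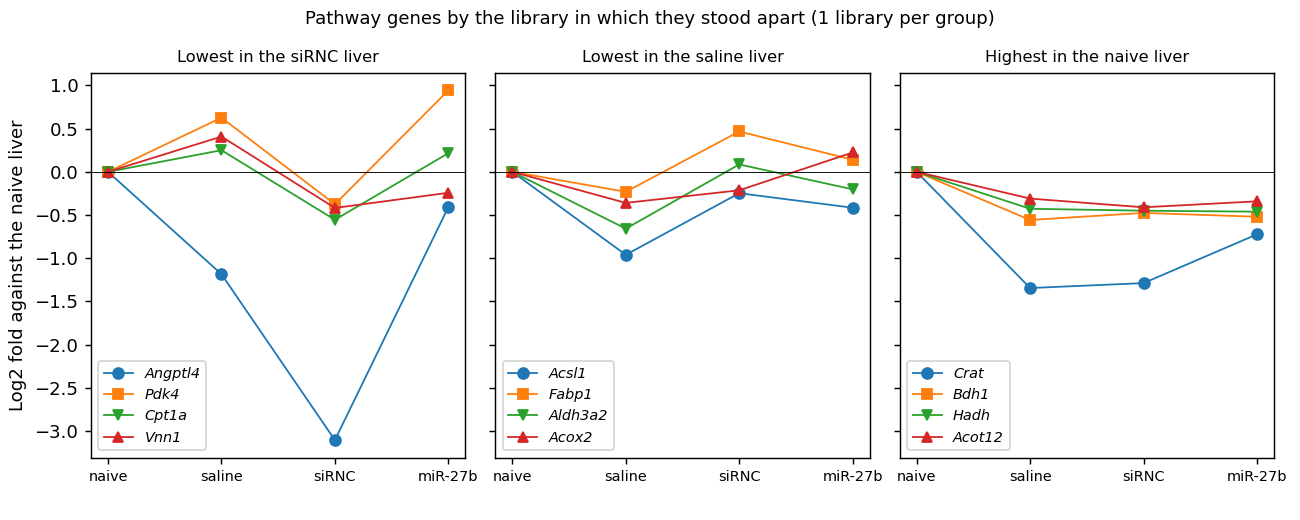
Log2 fold against the naive liver (y axis) in the 4 libraries (x axis) for 12 genes, with 1 library per group. The 3 panels hold genes lowest in siRNC, lowest in saline and highest in naive, whether or not by a wide distance. Lines join the points of a gene and carry no order of time. Angptl4 reaches -3.11 in the siRNC liver, and Bdh1, Hadh and Acot12 lie below 0 by a like amount in all 3 hepatectomised livers.

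The 3 genes for activation and binding of fatty acids had their lowest values in the saline liver. Acsl1, the main long-chain acyl-CoA synthetase of liver (gene ID 25288), had 0.42 in naive, -0.55 in saline, 0.17 in siRNC and 0 in miR-27b. The saline liver was the low one, at -0.96 against naive (interval -1.18 to -0.74), and siRNC was 0.71 above saline (0.49 to 0.94). Acsl5, another synthetase of this family, had -0.09, -0.40, 0 and 0.23 in the naive, saline, siRNC and miR-27b libraries. Fabp1, the liver fatty acid binding protein whose upstream sequence is shown above, had -0.14, -0.37, 0.33 and 0. Its interval in saline against naive just included 0 (-0.23, -0.48 to 0.011), with its lowest library placed at 256 reads. At a higher level the interval would be narrower. All 3 were above saline in both ASCs groups, by 0.40 to 0.71 with siRNC and by 0.37 to 0.62 with miR-27b.

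Aldh3a2, which oxidises fatty aldehydes to fatty acids (gene ID 65183), was likewise lowest in saline, with 0.20 in naive, -0.46 in saline, 0.29 in siRNC and 0 in miR-27b. It was at -0.66 in saline against naive (interval -0.89 to -0.43) and at 0.74 in siRNC against saline (0.52 to 0.97). Cyp4a1, a fatty acid omega-hydroxylase and a classical PPAR alpha target, was lowest in the naive liver (-0.30) and highest in the miR-27b liver (0.14), a difference of 0.44 (0.20 to 0.68). It sits beside Cyp4a3 in the genome, and reads of these close copies may be shared. Its copies Cyp4a2 and Cyp4a3, which are not among the 34 genes and are named after their values were seen, were at -0.06 and 0.29 in miR-27b against naive.

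The 15 central mitochondrial enzymes differed little between the livers. They are the acyl-CoA dehydrogenases, the electron transfer flavoproteins, the hydratases, hydroxyacyl-CoA dehydrogenases and thiolases, and the enzymes for unsaturated chains. At 1.5-fold, 0 of 15 were apart between any 2 libraries, against 43% of all genes and 34.03% of those at or above 256 reads, the class that holds all 15. Their distances between the highest and lowest library ran from 0.10 to 0.46, with a median of 0.21, against 0.43 over all genes of that class. Among the dehydrogenases, which take the first electrons from acyl-CoA, Acadvl stayed between -0.019 and 0.095 over the 4 libraries, and Acadm, the medium-chain enzyme, had the widest distance, at 0.28. Etfa and Etfb, the subunits that carry these electrons, had distances of 0.13 and 0.10, and Etfdh, which passes them to ubiquinone, one of 0.29. Hadha and Hadhb, the alpha and beta subunits of the trifunctional protein and neighbours in the genome, had distances of 0.17 and 0.21. Acaa2 and Echs1, the thiolase and the short-chain hydratase of the matrix, had 0.25 and 0.20.

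Hadh, the short-chain hydroxyacyl-CoA dehydrogenase (gene ID 113965), was the widest of the 15. It had 0.43 in naive, 0 in saline, -0.022 in siRNC and -0.034 in miR-27b. The 3 hepatectomised livers lay close together and below the naive liver, at -0.43 (interval -0.66 to -0.19), -0.45 (-0.69 to -0.21) and -0.46 (-0.70 to -0.22). Of the enzymes for unsaturated chains, Eci2 was lowest in siRNC (-0.26) and highest in naive (0.13). Decr1 was lowest in miR-27b (-0.21), and Eci1 stayed between -0.16 and 0.029.

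Bdh1 and Acot12 were, like Hadh, highest in the naive liver, with no shared order among the other 3. Bdh1, the mitochondrial enzyme that makes beta-hydroxybutyrate (gene ID 117099), had 0.48 in naive, -0.082 in saline, 0 in siRNC and -0.044 in miR-27b. It was lower than naive by a like amount in all 3, at -0.56 (interval -0.79 to -0.33), -0.48 (-0.71 to -0.25) and -0.52 (-0.76 to -0.29). Acot12, a cytosolic acetyl-CoA hydrolase, had 0.34, 0.032, -0.069 and 0 in the naive, saline, siRNC and miR-27b libraries. The comparisons with naive share the naive library. The naive liver was above the other 3 in 13 of 33 genes (39.4%), against 32.9% of all genes that passed the filter.

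Acot2, a mitochondrial thioesterase, was within 0.28 over the libraries. Acot1, its cytosolic neighbour in the genome and close copy, had 0, -0.38, -0.16 and 0.33 in the naive, saline, siRNC and miR-27b libraries. With under 16 reads in at least 1 library, each of its differences had an interval that included 0, such as 0.71 in miR-27b against saline (-1.37 to 2.97, with its lowest library placed at 4 reads), and reads of the pair may be shared. In peroxisomes, Ehhadh, the bifunctional enzyme, and Acaa1a, a thiolase with the close copy Acaa1b, had distances of 0.11 and 0.22. Acox2, an oxidase of branched chains and bile acid precursors, had 0.026 in naive, -0.33 in saline, -0.19 in siRNC and 0.25 in miR-27b, and was at 0.58 in miR-27b against saline (interval 0.35 to 0.82).

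Each comparison of libraries was then read over the 33 genes, beside the share of all genes past the same fold. Saline against naive asks what hepatectomy with saline changed. The median log2 fold was -0.096, against -0.015 over all genes. At 2-fold, 2 of 33 genes were apart, against 7.57% of all. Both, Crat and Angptl4, were lower (3.2% of all were), and 0 were higher (4.37%). At 1.5-fold, 5 were apart (20.7% of all): Pdk4 was higher (11%), and Crat, Angptl4, Acsl1 and Aldh3a2 were lower (9.72%).

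In siRNC against naive the median was -0.12, against -0.010 over all genes. Crat and Angptl4 were again the 2 genes apart at 2-fold, against 7.44% of all, with both lower (3.01%) and 0 higher (4.43%). They were also the 2 apart at 1.5-fold, against 19.9%, with 9.2% of all lower and 10.7% higher. In miR-27b against naive the median was -0.08, against -0.034, and 0 of 33 were apart at 2-fold, against 10.2% of all (7.06% higher and 3.12% lower). At 1.5-fold, 2 were apart, against 24.4%: Pdk4 was higher (13.1%) and Crat lower (11.3%).

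The comparison of siRNC against saline asks what ASCs-siRNC changed after hepatectomy. Its median was -0.0068, against -0.0054 over all genes. At 2-fold, 2 of 33 were apart, against 2.86% of all: Angptl4 and Pdk4 were lower (1.22%), and 0 were higher (1.64%). At 1.5-fold, 7 were apart, against 12.1%. Acsl1, Fabp1 and Aldh3a2 were higher (6.42% of all), and Angptl4, Pdk4, Vnn1 and Cpt1a were lower (5.67%).

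In miR-27b against siRNC, which asks what miR-27b adds and shares the siRNC library with the comparison before, the median was 0.075, against 0.0035 over all genes. Angptl4 and Pdk4 were the 2 genes apart at 2-fold, against 4.45% of all, with both higher (2.77%) and 0 lower (1.68%). At 1.5-fold Cpt1a joined them, so 3 were apart, against 14.8%, with 3 higher (7.66%) and 0 lower (7.09%). In miR-27b against saline the median was 0.095, against 0, and 0 of 33 were apart at 2-fold, against 3.47% of all (2.22% higher and 1.25% lower). At 1.5-fold 4 were apart, against 13.1%: Angptl4, Acsl5 and Crat were higher (7.12%) and Vnn1 lower (6.03%). With the libraries centred on plasma protein genes, both of these medians were below 0, at -0.12 and -0.033. Centred on all genes that passed the filter, they stayed at 0.072 and 0.095. The siRNC library was the highest of the 4 in 2 of 33 genes (6.06%), against 21.1% of all genes. It was the lowest in 11 (33.3%), against 22.5%, and so was the saline library, in 11 (33.3%), against 21.9%.

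**Figure D4:**
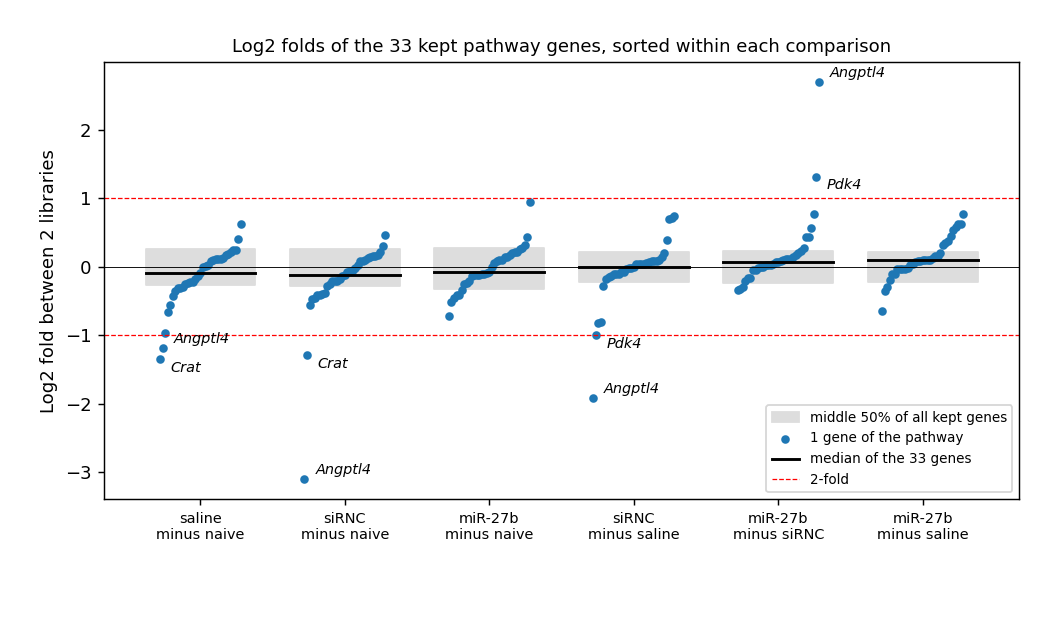
Log2 fold (y axis) of each of the 33 genes in 6 comparisons of 2 libraries (x axis), sorted within a comparison, with a black line for the median of the 33 and the interquartile range of all genes that passed the filter in grey. Angptl4, Pdk4 and Crat are the genes past the dashed 2-fold lines.

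Regulators of the pathway did not share 1 order. Ppara, the receptor itself, had 0.40 in naive, 0 in saline, -0.12 in siRNC and 0.40 in miR-27b, a distance of 0.52, and its partner Rxra one of 0.23. Ppargc1a, the coactivator PGC-1 alpha, was lowest in the naive liver (-1.10), with 0.73 in saline, 0 in siRNC and 1.85 in miR-27b. Lpin1, a phosphatidate phosphatase that also acts with PGC-1 alpha and PPAR alpha, had 0 in naive, 2.38 in saline, -0.017 in siRNC and 2.38 in miR-27b. Thus among the livers after hepatectomy, Lpin1 and Ppargc1a were lowest in siRNC, as were Angptl4, Pdk4 and Cpt1a. Fgf21, a hormone induced by PPAR alpha, lay under the level filter, with 1.24, -1.30, -1.64 and 0. Ppargc1b was listed at 0 in all 4 libraries. Beside these values, 2 genes of glucose production and 2 of fatty acid synthesis were chosen with earlier results of these data known. In siRNC against saline they were at -1.12 (Pck1), -1.65 (G6pc), 2.16 (Srebf1) and 2.13 (Fasn). Against naive, in the same order, siRNC was at -0.87, -2.67, 0.041 and 1.14. The saline liver was at 0.25, -1.02, -2.12 and -0.99 against naive. Pck1 and G6pc were thus lowest in siRNC, while Srebf1 and Fasn were lowest in saline. The part of feeding state in the siRNC and saline values was not tested.

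Of 81 other genes of the pathway on the list, 69 passed the filter. In saline against naive 4 were 2-fold or more higher (Acot9, Cyp4b1, Ppargc1a and Lpin1) and 2 lower, so that 6 of 69 were apart, against 7.57% of all genes. The median was -0.16. In siRNC against naive 2 were higher and 2 lower, together 4 of 69 against 7.44% of all, with a median of -0.17. In miR-27b against naive 4 were higher and 4 lower, together 8 of 69 against 10.2%, with a median of -0.08. In siRNC against saline 1 was higher (Acacb) and 2 lower (Lpin1 and Cyp4b1), together 3 of 69 against 2.86%. In miR-27b against siRNC 3 were higher (Ppargc1a, Lpin1 and Cyp4a8) and 2 lower (Hacl1 and Foxa2), together 5 of 69 against 4.45%. In miR-27b against saline 2 were higher and 2 lower, together 4 of 69 against 3.47%. Of the 5 other ketone body genes past the filter, 2, 1 and 2 were above naive in saline, siRNC and miR-27b, with medians of -0.21, -0.34 and -0.33. Hacl1, a peroxisomal lyase of alpha-oxidation, had 0.36 in naive, -0.0027 in saline, 0 in siRNC and -1.46 in miR-27b. Slc16a1, a carrier of lactate and ketone bodies, was below naive in all 3, at -0.97, -1.14 and -0.74. For comparison, 19 genes of the citric acid cycle and pyruvate dehydrogenase had medians from -0.04 to 0.08 over the 6 comparisons and none 2-fold apart.

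Markers of cell types were set beside the comparisons with naive. In bulk tissue, fewer hepatocytes and less RNA per hepatocyte cannot be told apart. Of all genes that passed the filter, 4.37%, 4.43% and 7.06% were 2-fold or more higher than naive in saline, siRNC and miR-27b. Hepatocyte plasma protein genes, 17 of 17 past the filter, had medians of -0.03, -0.08 and 0.08 for saline, siRNC and miR-27b against naive. Of these, 4 were 2-fold or more higher in miR-27b: Fga, Fgb, Fgg and Hpx. Of 13 macrophage genes, 12, 9 and 12 were 2-fold or more higher than naive, with medians of 1.32, 1.22 and 1.56 and a lowest gene of 0.12, -0.56 and -0.28. The 4 erythroid genes past the filter were all 2-fold or more higher in each, and the 7 endothelial genes had medians of 0.77, 0.41 and 0.78. Of the 4 stellate and matrix genes past the filter, 2, 4 and 2 were 2-fold or more higher than naive, with medians of 0.93, 1.97 and 1.39, and Col1a1 reached 4.50 in siRNC. The part of these cells in the lower values of Crat, Bdh1, Hadh, Acot12, Acsl1 and Angptl4 was not tested. In siRNC against saline, where Angptl4 and Pdk4 were lower, the median was -0.24 for the macrophage and -0.09 for the hepatocyte genes, and all 4 stellate and matrix genes were higher (median 1.25). Adipoq and Plin1, defining markers of fat tissue, and Ckm, Myh4 and Acta1, of muscle, were listed at 0 in all 4 libraries. The other 3 adipose genes did not share a direction against naive: in saline, siRNC and miR-27b, Fabp4 was at 2.97, 3.37 and 4.50, Cfd at 1.26, 0.96 and 0.86, and Car3 at -1.36, -0.57 and -1.44.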

How the data were processed

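Poly(A)-selected liver RNA was prepared with TruSeq reagents into 4 libraries, per the labels' protocols, and sequenced on an Illumina MiSeq, per the series' design text. Groups came from the source labels, and table columns were matched to samples by title. Per the submitters' processing notes the authors used DESeq and build rn5 (aligner, counter: not given in the sources used here). Deposited values are log2 values named normalized, with 1 baseline per gene, floored at 1 normalized read. The log2 fold was the difference of 2 deposited values, with no pseudocount. The worth of 1 read, and so the size factor, was taken from the most common value of genes above 0 in 1 library alone. Stored values come in steps that grow with the level, so a gene passed the filter if all its values fit the step of 16 normalized reads or more; a stricter class fits the step of 256. With 16 reads in both libraries counting alone gives a log2 ratio an SD of 0.51, and with 256 reads 0.13. The level class was tried on simulated reads whose libraries differed little, with gaps in mean level left around 16 and 256 reads. It was not tried on genes as far apart between libraries as Angptl4. Genes 2-fold apart, and those of their role groups, are given in every library; others by range, with the widest of each group named. Members and lists were chosen with earlier results of these data known. Python 3.11.15, numpy, pandas and scipy were used. Sequences are from RefSeq tables.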

Additional observations from a re-analysis of the deposited data

How the results depend on the processing

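Of 57 recomputed medians, 55 moved by less than the counting SD at 256 reads (0.13). That SD is for a single gene and exceeds the size of every main median, so it is a loose bound. Centred on plasma protein genes, which subtracts 0.20 and 0.13, the median was -0.12 in place of 0.075 in miR-27b against siRNC. In miR-27b against saline it was -0.033 in place of 0.095. Centred on all genes that passed the filter, these medians stayed at 0.072 and 0.095, so their sign depends on the genes used for centring. Of the 17 plasma protein genes, 12 were higher and 5 lower in miR-27b against siRNC. At 1.5-fold, 4 were higher and 0 lower. Within the bound, the sign also changed in siRNC against saline, from -0.0068 to 0.088 with plasma protein centring. There it was 0.016 with no level filter or without the widest 3 genes. In miR-27b against naive the median went from -0.08 to 0.00085 with the stricter filter. The count of genes 2-fold apart was small, and it changed by more than 1.5 times in 15 of 51 cases. In saline against naive it was 2, and 0 with the stricter filter, 0 with a pseudocount of 20 and 5 at 1.5-fold. In siRNC against naive it was 2, and 0 with the stricter filter and 1 with a pseudocount of 20. In miR-27b against naive it was 0, and 2 at 1.5-fold. It was 2 when the median of the 3 hepatectomised libraries took the place of the miR-27b library. That setting is the same for all 3 comparisons with naive, so it was counted 3 times. In siRNC against saline it was 2, and 1 with either centring, the stricter filter or a pseudocount of 5 or 20, and 7 at 1.5-fold. In miR-27b against siRNC it was 2, and 1 with the stricter filter and, within that tolerance, 3 at 1.5-fold. In miR-27b against saline it was 0, and 4 at 1.5-fold. The stricter filter removes Angptl4 and Crat; for the other changes the cause was not tested, apart from Pdk4 lying at the threshold. The pseudocounts were added to reads placed as for the intervals, with the gene's lowest library at the bottom of its level class. These are not recovered reads, and a gene above that level would shrink less. With a pseudocount of 20 and its lowest library at 16 reads, Angptl4 was at -2.13 in siRNC against naive. It was at 1.78 in miR-27b against siRNC. The folds of Angptl4, Pdk4 and Crat that were past 2-fold could not change sign under these settings. A pseudocount only shrinks a fold, and the 2 centrings subtract 0.20 at most. Leaving these 3 genes out of the medians was chosen after seeing the data. No paired analysis was possible because each group holds 1 library. Depth limits Acot1 most, and after it Angptl4, Crat, Vnn1 and Acot2, all of the class of at least 16 reads.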
